A study of Rattus norvegicus with 2 samples.

Results

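Among the single-cell libraries of rat cortical neural stem cells, 258 of the 3849 barcodes of the ZD7288 library held few molecules and very little mitochondrial RNA. These low-UMI barcodes were chosen by 3 measured values: 800 to 5000 unique molecular identifiers (UMIs, 1 per captured RNA molecule), at least 300 detected genes, and at most 2% of UMIs from the 13 mitochondrially encoded Mt- genes. They made up 6.70% of the ZD7288 barcodes, out of 4691 barcodes in both libraries. They were set against 2763 barcodes of the same library with over 10000 UMIs and at most 10% Mt- UMIs. The stem cells came from the cortex of E14.5 Sprague-Dawley rat embryos and were kept undifferentiated with FGF2. The ZD7288 culture received 30 µM ZD7288, a blocker of HCN channels, in 0.2% DMSO for 48 h, the medium and the blocker being replaced once after 24 h, and the vehicle culture received 0.2% DMSO alone. Each condition was 1 culture and 1 library, so barcodes are not replicates, no test between conditions was possible, and all intervals below are exact 95% intervals that cover counting error only.

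A droplet barcode can carry the RNA of a whole cell, of part of a cell or of a nucleus. Messenger RNAs for secreted and membrane proteins are translated at the endoplasmic reticulum (ER), those for ribosomal proteins and most metabolic enzymes are translated in the cytosol, and Mt- RNAs stay inside mitochondria. Many transcripts of splicing factors keep some of their introns and are held in the nucleus. The lists below follow these places in the cell, and then the cell cycle.

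**Figure D1:**
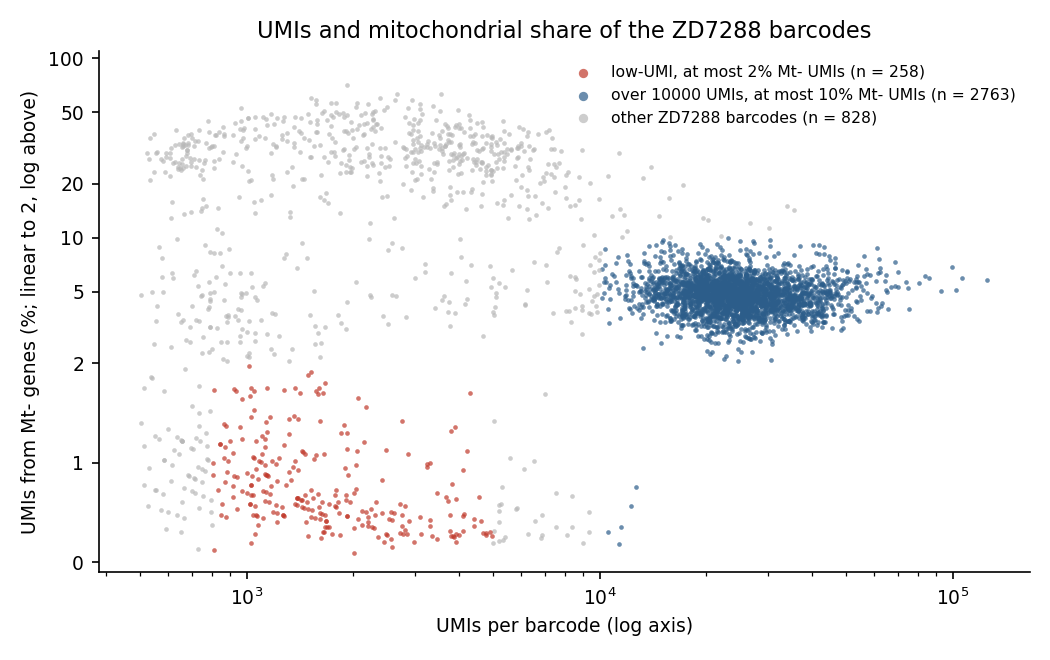
Each point is 1 of the 3849 ZD7288 barcodes, with its UMIs on a log axis and its share of Mt- UMIs in percent (linear to 2, log above). The 258 low-UMI barcodes poor in Mt- RNA lie at the lower left with a median of 0.652% Mt- UMIs, below the cloud of 2763 barcodes of over 10000 UMIs with a median of 4.81%.

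The low-UMI barcodes had a median of 1554.5 UMIs, 839.5 detected genes and 0.652% Mt- UMIs. The barcodes of over 10000 UMIs had medians of 24135 UMIs, 4110 genes and 4.81% Mt- UMIs. These values chose the members and are given as a description. Of the 258, 123 had under 1500 UMIs, 96 had 1500 to 3000 and 39 had more. The same low mitochondrial share continued past the upper limit, since 30 barcodes of 5000 to 10000 UMIs and 5 of over 10000 UMIs also had at most 2% Mt- UMIs. Just inside the upper limit, 16 barcodes of 4000 to 5000 UMIs had a median of 0.387% Mt- UMIs, and 14 just outside it, with 5000 to 6000 UMIs, had 0.528%. Just inside the mitochondrial limit, 23 barcodes of 1.5 to 2% had a median of 1.72%, and 10 just outside it, with 2 to 2.5%, had 2.18%. These 2 medians follow from the ranges themselves. At the lower limit, 18 barcodes of 800 to 900 UMIs had a median of 559 genes and 25 just outside it, with 700 to 800 UMIs, had 504; the fewest genes in any of the 258 were 426. The rule limits the summed share of the Mt- genes, so lower levels of these genes largely follow from the choice of members. They are given as a description. All 13 were lower in the low-UMI barcodes, though Mt-atp8, Mt-nd4l and Mt-nd6 rest on 0, 2 and 3 UMIs there. For instance, Mt-atp6, a subunit of ATP synthase, stood at 1933 per 1000000 of all UMIs against 12307 in the barcodes of over 10000 UMIs, and Mt-co1, a subunit of cytochrome c oxidase, at 633 against 5457.

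For all other genes, UMIs were summed over the barcodes of a set and expressed per 1000000 UMIs from genes other than Mt- genes (CPM). The sums were 486041 such UMIs in the low-UMI barcodes and 68951708 in the barcodes of over 10000 UMIs. A gene was taken as measured where its mean of both sets reached 50 CPM, which is about 24.5 UMIs in the low-UMI barcodes, and 2737 genes were. A gene could pass this floor through its level in either set alone. The fewest UMIs of a measured gene in the low-UMI barcodes were 9. Genes far apart in the 2 sets thus pass through the set where they are high, and counts of higher and lower genes depend on this. No barcode shared between the libraries was among the 258, while the 3 that both libraries held were all among the barcodes of over 10000 UMIs.

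The low-UMI barcodes held RNAs of the stem cell and radial glia list, but several of its genes at lower levels. Vim, an intermediate filament protein of neural progenitors, stood at 4631 CPM in the low-UMI barcodes and 4936 CPM in those of over 10000 UMIs. Fabp7, a fatty acid binding protein of radial glia, stood at 2362 and 2124 CPM in the same order, and the lineage factor Olig2 at 313 and 281 CPM. The transcription factor Sox2, which maintains neural progenitors, was lower, at 152 against 261 CPM. The 14 matched genes of the stem cell and radial glia list summed to 7594 CPM in the low-UMI barcodes, against 8138 CPM, most of it Vim and Fabp7. Of its 7 measured genes 4 were lower by 1.5-fold or more and 0 higher, with a median log2 ratio of -0.67. Besides Sox2 these were Ptprz1, described below, Nes, an intermediate filament protein, at 88.5 CPM against 141 CPM, and Sox9, a transcription factor of radial glia, at 39.1 CPM against 82.4 CPM. Of the microglia and macrophage list 11 of 12 genes had 0 UMIs in the low-UMI barcodes, as did 10 of 11 pericyte, fibroblast and mesenchymal genes, the exception being Tagln, an actin-binding protein, at 24.7 CPM against 8.54 CPM on 12 UMIs. At 0 were also all of the endothelial, interneuron, erythroid and ependymal genes. In the barcodes of over 10000 UMIs these 4 lists summed to only 0.45, 0.54, 0.0145 and 0.80 CPM, and the microglia and macrophage list to 1.49 CPM. Since 3 UMIs are 6.17 CPM in the low-UMI barcodes, these zeros do not set the 2 sets apart. Of the neuronal list 7 of 15 genes had 0 UMIs. Among them were Dcx and Neurod6, which stood at only 0.261 and 0.029 CPM in the barcodes of over 10000 UMIs. The list summed to 208 CPM against 246 CPM. Of its 2 measured genes, Gap43, a growth cone protein, stood at 111 CPM against 108 CPM, and Map2 at 32.9 CPM against 68.6 CPM on 16 UMIs. The intermediate progenitor list summed to 185 CPM against 233 CPM, most of it Btg2, an antiproliferative gene, and the astrocyte list to 82.3 CPM against 86.9 CPM, most of it Aldoc, an aldolase. The oligodendrocyte lineage list summed to 1206 CPM against 1297 CPM, nearly all of it Olig2 and Olig1, the latter at 817 CPM against 942 CPM. Sox10, Pdgfra and Mbp were at 0 in the low-UMI barcodes and at only 0.145, 0.116 and 0.145 CPM in those of over 10000 UMIs.

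Transcripts for secreted and membrane proteins were lower in the low-UMI barcodes. The 50 genes of this list summed to 11501 CPM (11202 to 11807) in the low-UMI barcodes and 15998 CPM (15968 to 16028) in those of over 10000 UMIs, a ratio of 0.72 (0.70 to 0.74). Over all measured genes, 122 of 2737 (4.46%) were lower in the low-UMI barcodes by 1.5-fold or more and 87 (3.18%) were higher by as much. With Mt- genes counted in the total these were 92 lower and 137 higher, and with the median gene ratio set to 1 they were 159 lower and 56 higher. Of the 32 measured genes of the secreted and membrane list 11 were lower by this measure and 0 higher, with a median log2 ratio of -0.37 beside 0.054 over all measured genes. Ptprz1, a receptor phosphatase of radial glia, stood at 28.8 CPM against 150 CPM. Scd2, a fatty acid desaturase of the ER membrane, stood at 436 CPM against 788 CPM. Psap, the precursor of lysosomal saposins, stood at 163 CPM against 273 CPM, and Serpinh1, the collagen chaperone of the ER, at 625 CPM against 986 CPM. The abundant secreted protein genes were lower by less: Cst3, a secreted protease inhibitor, stood at 2973 CPM against 4469 CPM, and the growth factor Ptn at 2411 CPM against 3043 CPM. Lgals1, a galectin made on free ribosomes and exported without passing through the ER, was the member with the largest ratio, at 206 CPM against 154 CPM.

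The ER's own folding machinery was lower too. The 26 genes of the ER chaperone list summed to 4063 CPM in the low-UMI barcodes and 4973 CPM in the barcodes of over 10000 UMIs, a ratio of 0.82 (0.78 to 0.85). Of 17 measured genes 4 were lower by 1.5-fold or more and 0 higher, with a median log2 ratio of -0.39. Pdia4, a protein disulphide isomerase, stood at 37.0 CPM against 72.4 CPM, and Hsp90b1, the ER form of HSP90, at 115 CPM against 194 CPM. Ssr3, a subunit of the translocon-associated complex, stood at 76.1 CPM against 141 CPM, whereas Sec61b, a small subunit of the translocon, stood at 560 CPM against 492 CPM. Gene families were added after these values were seen. The solute carriers outside the Slc25 family, which sit mostly in the plasma membrane and other cell membranes, summed to 3376 CPM against 4543 CPM (ratio 0.74, 0.71 to 0.78). The Slc25 carriers of the mitochondrial inner membrane, made in the cytosol, summed to 4932 CPM against 5440 CPM (ratio 0.91, 0.87 to 0.94). The Tmem genes, named only for a predicted membrane span, were nearer to the rest: they summed to 4218 CPM against 4668 CPM (ratio 0.90, 0.86 to 0.94), with 1 higher and 1 lower by 1.5-fold or more among 31 measured and a median log2 ratio of -0.051.

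Single genes were far less certain than lists, since most had few UMIs in the low-UMI barcodes. The whole interval of the ratio lay past 1.5-fold for 13 lower genes (0.475%) and 2 higher ones (0.0731%). Among the 13 were Ptprz1, Col4a1, Ube2m, Ybx3, Tcf4, Impad1, Hnrnpd, Atp1b3, Rpn1, Smc4, LOC103689931 and Scd2. Col4a1, a collagen of basement membranes, had 9 UMIs in all, or 18.5 CPM against 85.9 CPM. Like Ptprz1, Ube2m, Tcf4 and Impad1, it passed the floor only through the barcodes of over 10000 UMIs, so these ratios are a description. Atp1b3, a beta subunit of the sodium pump, stood at 59.7 CPM against 132 CPM. Rpn1, a subunit of the enzyme that attaches sugar chains to proteins in the ER, stood at 96.7 CPM against 208 CPM. Not all of the 13 encode such proteins: Ube2m, a NEDD8-conjugating enzyme, stood at 47.3 CPM against 185 CPM, the RNA-binding protein Ybx3 at 55.6 CPM against 205 CPM, Hnrnpd, another RNA-binding protein, at 96.7 CPM against 241 CPM, and Tcf4, a transcription factor, at 22.6 CPM against 78.1 CPM. The 2 higher genes were AC134224.3, which is taken up below, and Gnl2, a nucleolar GTPase of ribosome assembly, at 98.8 CPM against 48.2 CPM. Other genes among the 12 with the largest ratios, whose intervals reached below 1.5-fold, were Polr2b, a subunit of RNA polymerase II, at 74.1 CPM against 34.9 CPM, the nuclear scaffold protein Safb at 125 CPM against 64.5 CPM, the RNA methyltransferase Mettl3 at 74.1 CPM against 38.9 CPM, and the haem oxygenase Hmox1 at 189 CPM against 104 CPM.

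**Figure D2:**
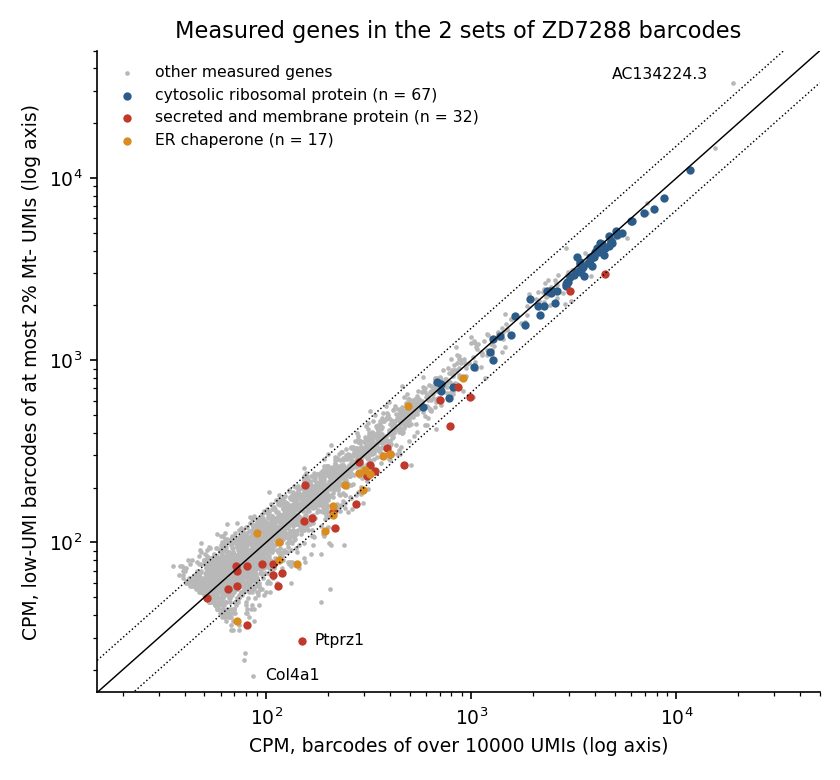
Each point is 1 of the 2737 measured genes, with its CPM in the low-UMI barcodes (vertical, log axis) against its CPM in the barcodes of over 10000 UMIs (horizontal, log axis); the solid line marks equal levels and the dotted lines 1.5-fold. Most of the 32 secreted and membrane protein genes and of the 17 ER chaperone genes lie below the solid line, the 67 ribosomal protein rows lie close to it, and AC134224.3 lies above it.

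Cytosolic ribosomal protein and housekeeping transcripts held nearly the same share in both sets. Ribosomal protein genes summed to 215984 CPM in the low-UMI barcodes and 230378 CPM in those of over 10000 UMIs, a ratio of 0.94, and 0 of 67 measured rows passed 1.5-fold in either direction, with a median log2 ratio of -0.10. Rpl41, a large-subunit protein, stood at 11143 CPM against 11678 CPM, and Rps2, a small-subunit protein, at 7800 CPM against 8713 CPM. The lowest ratio of the list was that of Rpl12, at 1008 CPM against 1280 CPM, and the highest that of Rpl31, at 3670 CPM against 3263 CPM. Cytoplasmic housekeeping genes summed to 89643 CPM against 90624 CPM, a ratio of 0.99, with a median log2 ratio of -0.019. Among them Tmsb4x, an actin-binding peptide, stood at 14678 CPM against 15367 CPM. Tpt1, the translationally controlled tumour protein, was lower at 2113 CPM against 3064 CPM. Nuclear genes of the respiratory chain, whose messages are translated in the cytosol, summed to 37478 CPM against 37228 CPM. Proteasome subunits summed to 12192 CPM against 10886 CPM (ratio 1.12, 1.09 to 1.15), and ribosome biogenesis genes to 8438 CPM against 7590 CPM (ratio 1.11, 1.08 to 1.15). Psmd12, a subunit of the proteasome lid, stood at 257 CPM against 153 CPM, and Wdr43, a nucleolar factor, at 163 CPM against 105 CPM.

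Nuclear-retained long non-coding RNAs could not be read directly. Of 30 symbols of that list only Tug1 and Snhg11 had a row in the matrix, neither was measured, and together they stood at 14.4 CPM in the low-UMI barcodes against 22.6 CPM, a ratio of 0.64 (0.26 to 1.31). The list of detained-intron and splicing factor transcripts summed to 8623 CPM against 7689 CPM, a ratio of 1.12 (1.09 to 1.16). Of its 30 measured genes 1, Son, a protein of nuclear speckles, was higher by 1.5-fold or more, at 342 CPM against 206 CPM, and 0 were lower by as much, with a median log2 ratio of 0.23. These sums pool low-UMI barcodes of unlike make-up, described next.

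AC134224.3 (ENSRNOG00000062158), a gene known here only by identifier and to which the tables used here give no name or role, divided the low-UMI barcodes. Its share of a barcode's UMIs outside Mt- genes was below 0.5% in 197 of the 258, and below 2% in 215 (83.3%). In 39 (15.1%, 11.0 to 20.1) it was 5% or more, up to 51.3%. Between 2% and 5% there were 4 barcodes, and between 5% and 10% there was 1. The median over the 258 was 0.164%. The barcodes of over 10000 UMIs were not divided in this way: 1737 of 2763 (62.9%) lay below 2% and 986 (35.7%) between 2% and 5%. Their median was 1.70%, the range of 5% to 95% of them was 0.572% to 3.73%, and 40 of 2763 (1.45%) reached 5%. Summed over barcodes, the gene held 30.5% of the UMIs in the 39, 0.181% in the 215 and 1.88% in the barcodes of over 10000 UMIs. Whether AC134224.3 is one of the nuclear-retained RNAs that have no row by symbol was not tested. The limits of 2% and 5% were chosen after these values were seen, and the ranges are ranges of 1 gene's share, not cell types.

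**Figure D3:**
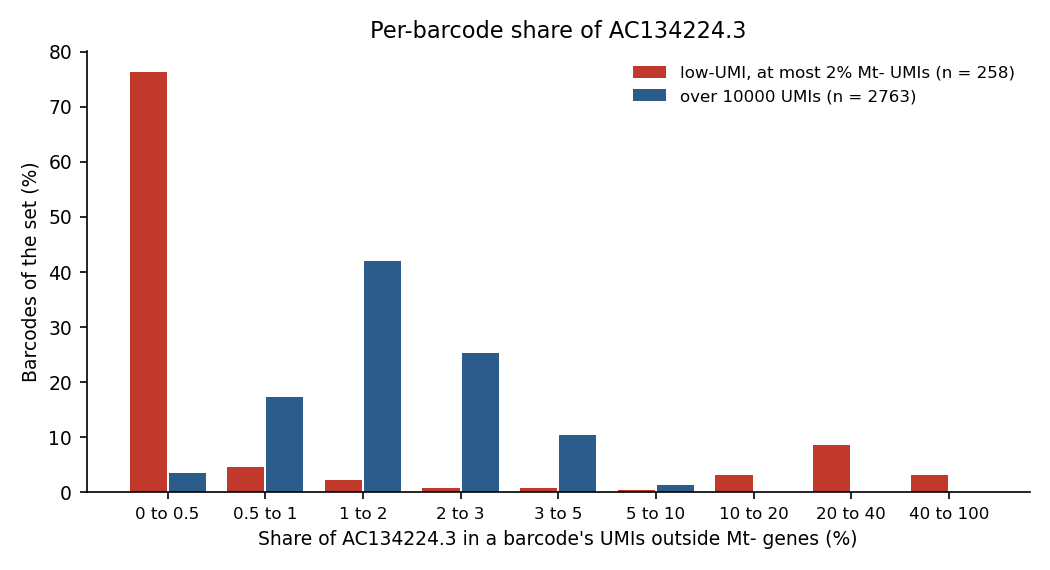
Bars give the percent of barcodes of each set that fall in each range of AC134224.3 share (percent of UMIs outside Mt- genes), for the 258 low-UMI barcodes and the 2763 barcodes of over 10000 UMIs. The low-UMI barcodes fall mostly below 0.5% (76.4%) with a second group above 10%, and the barcodes of over 10000 UMIs fall mostly between 0.5% and 5%.

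The 39 barcodes rich in AC134224.3 also differed in genes that played no part in the choice. For what follows the gene itself was left out of every total, which leaves 34077 UMIs in the 39, 424607 in the 215 and 67656397 in the barcodes of over 10000 UMIs. The detained-intron and splicing factor list summed to 16844 CPM in the 39, to 8290 CPM in the 215 and to 7836 CPM in the barcodes of over 10000 UMIs. The ratio of the 39 to the 215 was 2.03 (1.86 to 2.22). Of the 10 genes of the list that reached 300 CPM in the barcodes of over 10000 UMIs, 5 were higher in the 39 than in the 215 by 1.5-fold or more and 1 lower. Per barcode, the middle 50% of the 39 lay between 12135 and 21277 CPM and that of the 215 between 6838 and 10073 CPM. These parts of the ranges did not overlap. The ranges from the 5th to the 95th percentile did, at 8259 to 26859 and 4084 to 13015 CPM. For the secreted and membrane, ribosomal protein and housekeeping lists the middle 50% did not overlap either. Such a gap was thus not particular to the detained-intron and splicing factor list. No single barcode gave more than 5.40% of the 39 barcodes' UMIs of this list. Pnn, a splicing-associated protein of nuclear speckles, stood at 968 CPM in the 39 (33 UMIs in 18 barcodes), 30.6 CPM in the 215 and 75.5 CPM in the barcodes of over 10000 UMIs. Pnisr, a related arginine- and serine-rich protein, stood at 1203, 82.4 and 132 CPM in the same order. Both Pnn and Pnisr were picked for being high in the 39, so their ratios are a description. The splicing factor Srsf2, with UMIs in 35 of the 39, stood at 3081, 645 and 767 CPM, and Son at 880, 301 and 210 CPM. Not every splicing factor was higher in the 39: Srsf3 stood at 587, 747 and 778 CPM.

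Single genes were counted where they reached 300 CPM in the barcodes of over 10000 UMIs, a level that neither range sets. Of 563 such genes 43 (7.64%) were higher in the 39 than in the 215 by 1.5-fold or more and 128 (22.7%) lower, with the whole interval past 1.5-fold for 15 (2.66%) and 2 (0.355%). Among the 15 were Srsf2 (ratio 4.77), Srsf7, another splicing factor (ratio 2.59), and genes of membrane and secreted proteins. The glutamate transporter Slc1a3 stood at 822 CPM in the 39 against 191 CPM in the 215, the amino acid transporter subunit Slc3a2 at 2377 against 558 CPM, Serpinh1 at 1555 against 577 CPM and Ptn at 5018 against 2289 CPM. The 2 lower genes rest on few UMIs. Gars, the glycyl-tRNA synthetase, had 4 UMIs or 117 CPM in the 39 against 537 CPM in the 215, and Timm8b, a chaperone of protein import into mitochondria, had 3 UMIs or 88.0 CPM against 433 CPM. Some genes of lower level had larger ratios but were picked for being high in the 39, so their ratios are a description: Gmpr2, a GMP reductase, stood at 880 CPM in the 39 against 33.0 CPM in the 215, Taf1d, a factor of RNA polymerase I, at 1409 against 82.4 CPM, and Ankrd11, a chromatin regulator, at 822 against 91.8 CPM.

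By list sums, the 39 also held more of the membrane and secretory transcripts, and the 215 less. The secreted and membrane protein list summed to 23065 CPM in the 39, 11017 CPM in the 215 and 16304 CPM in the barcodes of over 10000 UMIs. The ER chaperone list summed to 7542, 3942 and 5068 CPM in the same order. Among the 563 genes counted above, 9 of 12 secreted and membrane genes and 5 of 7 ER chaperone genes were higher in the 39 than in the 215 by 1.5-fold or more, and 0 lower. The solute carriers outside Slc25 summed to 10359, 2939 and 4630 CPM, so that the ratio of the 39 to the 215 was 3.52 (3.12 to 3.97). Against the barcodes of over 10000 UMIs, with genes counted where they reached 300 CPM in the 215, 27 of 582 (4.64%) were higher in the 39 by 1.5-fold or more and 97 (16.7%) lower. The whole interval lay past 1.5-fold for 6 (1.03%), among them Srsf2, Son and Slc3a2, and for 1 lower gene (0.172%), Tpt1. Of the 582 few were in these lists: 3 of 7 secreted and membrane genes and 0 of 3 ER chaperone genes were higher by 1.5-fold or more, and 0 lower. Their median log2 ratios were 0.31 and 0.075, beside -0.25 over all 582. Long neural genes, a list of genes with very long introns, stood at 1056, 349 and 444 CPM on only 36 UMIs in the 39. Chromatin and transcription genes stood at 2494, 1477 and 1828 CPM. The sums of the cytosolic lists ran the other way. Ribosomal protein genes summed to 182234 CPM in the 39, 226054 CPM in the 215 and 234789 CPM in the barcodes of over 10000 UMIs. Cytoplasmic housekeeping genes summed to 73627, 94290 and 92359 CPM. Over the 563 genes counted for the 39 against the 215, the median log2 ratio was -0.31. The ribosomal protein list had a median of -0.30 and the housekeeping list of -0.38, so both lay near that of all counted genes. Lower by 1.5-fold or more were 6 of 67 ribosomal protein rows and 8 of 41 housekeeping genes, beside 22.7% of the 563. The splicing factor difference was not limited to the 258. In the low-UMI barcodes with over 2% to 10% Mt- UMIs, the detained-intron list stood at 15967 CPM where AC134224.3 was at least 5% and 9358 CPM where it was below 2%, and in those with over 10% Mt- UMIs at 13143 and 7289 CPM in the same order. The secreted and membrane list stood at 20997 and 17606 CPM in the first of these sets, and at 31020 and 30797 CPM in the second, where the 2 ranges were nearly equal.

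**Figure D4:**
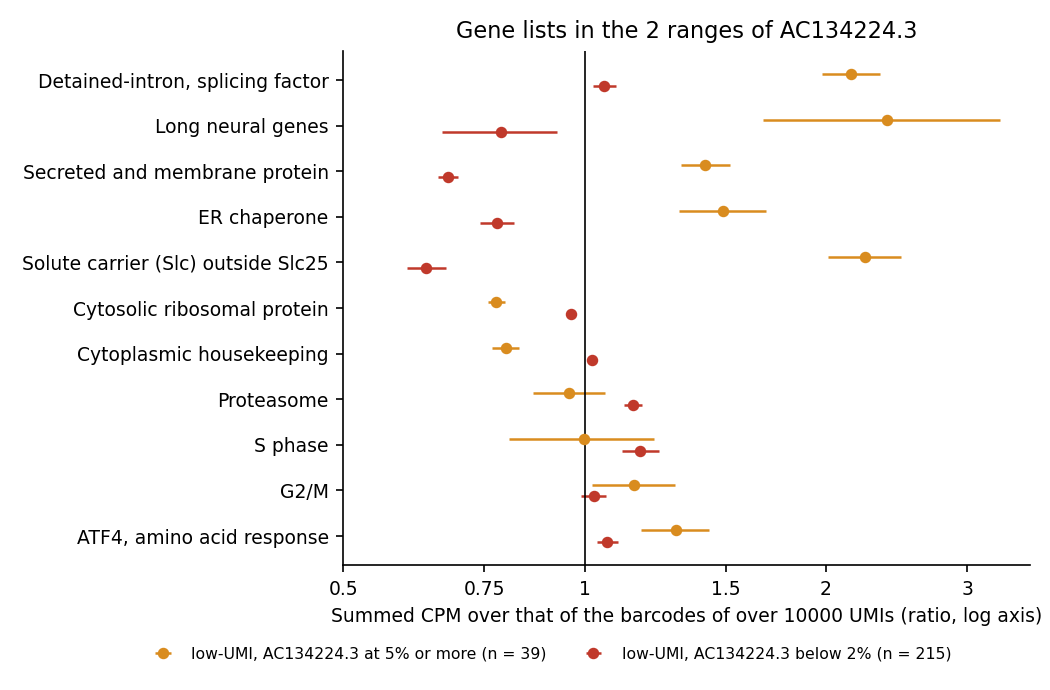
For each gene list, the summed CPM of the 39 low-UMI barcodes with at least 5% AC134224.3 and of the 215 with less than 2% is divided by that of the 2763 barcodes of over 10000 UMIs (log axis), with AC134224.3 left out of all totals and bars for exact 95% counting intervals. The detained-intron, secretory and solute carrier lists lie to the right of 1 in the 39, at 2.15, 1.41 and 2.24, and near or left of 1 in the 215, at 1.06, 0.68 and 0.63.

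The 215 barcodes poor in AC134224.3 were thus lower in secretory transcripts than the 258 as a whole. Their secreted and membrane list stood at a ratio of 0.68 (0.66 to 0.70) to the barcodes of over 10000 UMIs, their ER chaperone list at 0.78 (0.74 to 0.82) and their solute carriers outside Slc25 at 0.63 (0.60 to 0.67). Of 2772 measured genes 180 (6.49%) were lower by 1.5-fold or more and 127 (4.58%) higher, with the whole interval past 1.5-fold for 23 (0.83%) and 3 (0.108%). Among the 32 measured secreted and membrane genes 13 were lower by that rule of fold alone and 0 higher. Their detained-intron and splicing factor list stood at a ratio of 1.06 (1.02 to 1.09), with a median log2 ratio of 0.092 beside 0.082 over all measured genes. Ribosomal protein genes stood at 0.96, housekeeping genes at 1.02, proteasome genes at 1.15 and ribosome biogenesis genes at 1.14. Ptprz1 stood at 21.2 CPM against 153 CPM and Col4a1 at 16.5 CPM against 87.6 CPM. Both passed the floor only through the barcodes of over 10000 UMIs. The 39 had medians of 1163 UMIs, 598 detected genes and 1.09% Mt- UMIs, and the 215 had medians of 1632 UMIs, 883 genes and 0.605% Mt- UMIs. Depth and mitochondrial share thus differed between the ranges as well, and their part in the list differences was not tested. All 39 had under 3000 UMIs, 29 of them under 1500. Of the microglia and macrophage list, the 39 had 1 UMI and the 215 had 0.

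Cell cycle transcripts were present in the low-UMI barcodes at about the level of the other barcodes. S phase genes summed to 3029 CPM in the low-UMI barcodes against 2686 CPM in those of over 10000 UMIs (ratio 1.13, 1.07 to 1.19), and 0 of 23 measured genes passed 1.5-fold. Pcna, the replication clamp, stood at 272 CPM against 267 CPM, and Nasp, a histone chaperone, at 241 CPM against 172 CPM. G2/M genes summed to 7168 CPM against 6896 CPM (ratio 1.04, 1.01 to 1.07). Of 34 measured G2/M genes 0 were higher by 1.5-fold or more and 2 lower: Smc4, a subunit of condensin, at 86.4 CPM against 185 CPM, and Cenpf, a kinetochore protein, at 78.2 CPM against 128 CPM. The proliferation marker Mki67, which was not measured by the floor, had 7 UMIs or 14.4 CPM against 66.6 CPM. The G2/M median depended on the barcodes compared. The G2/M list stood at 4827 CPM in the 698 comparison barcodes of 10000 to 20000 UMIs, at 5841 CPM in those of 20000 to 30000 and at 9059 CPM in those of over 30000. Against the first of these alone, the median log2 ratio of the list was 0.59, beside 0.091 against all 2763.

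Each barcode was also thinned to 700 UMIs from genes other than Mt- genes, which put both sets at the same depth and left out no barcode of either. At that depth the low-UMI barcodes had 465 ± 41.1 detected genes and the barcodes of over 10000 UMIs had 467 ± 17.2 (SD over 258 and 2763 barcodes). The G2/M list had 5.06 ± 3.69 UMIs per low-UMI barcode and 4.46 ± 3.66 per barcode of over 10000 UMIs. At least 10 such UMIs were found in 10.5% (7.01 to 14.9) of low-UMI barcodes, against 11.1% (9.93 to 12.3) of those of over 10000 UMIs. At least 5 S phase UMIs were found in 7.75% (4.80 to 11.7) of low-UMI barcodes, against 8.94% (7.90 to 10.1). Free RNA in droplets adds to such shares and was not measured here. Some other lists were more scattered among the low-UMI barcodes. The secreted, membrane and ER chaperone genes together had 11.7 ± 5.79 UMIs against 14.8 ± 4.28, with a variance 2.88 times the mean against 1.24 times. The ribosomal protein genes had 144 ± 29.9 UMIs against 162 ± 18.1. The S phase and G2/M lists were not more scattered, with a variance 1.55 and 2.69 times the mean against 1.64 and 3.01 times. The 700 UMIs still held those of AC134224.3, so a barcode rich in that gene had fewer left for any list. The part of AC134224.3 in the scatter was not tested.

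The amino acid response, the set of ATF4 targets that is high in the ZD7288 library, was as high in the low-UMI barcodes as in those of over 10000 UMIs. The 46 genes of this list summed to 9841 CPM (9564 to 10124) in the low-UMI barcodes and 9198 CPM in the ZD7288 barcodes of over 10000 UMIs. In the vehicle library the barcodes of over 10000 UMIs stood at 2748 CPM. Aars, the alanyl-tRNA synthetase, stood at 230 CPM in the low-UMI barcodes against 156 CPM in the ZD7288 barcodes of over 10000 UMIs. The amino acid transporter Slc7a3, a membrane protein in the same list, stood at 109 CPM against 191 CPM. Among the heat shock genes the list summed to 7567 CPM against 7238 CPM, with Hsp90aa1, the inducible cytosolic HSP90, at 305 CPM against 447 CPM and its co-chaperone Chordc1 at 119 CPM against 75.1 CPM. Of the immediate early genes Egr1 stood at 51.4 CPM against 97.6 CPM and Myc at 232 CPM against 166 CPM. Apoptosis genes summed to 1206 CPM against 1041 CPM (ratio 1.16, 1.07 to 1.26), with 0 of 8 measured genes higher by 1.5-fold or more and 1, Bad, a death-promoting member of the BCL2 family, lower, on 21 UMIs.

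Barcodes within the same UMI limits but richer in Mt- RNA looked different. The secreted and membrane list stood at 11501 CPM in the 258, against 16956 CPM in the 102 ZD7288 barcodes of 800 to 5000 UMIs with over 2% to 10% Mt- UMIs and 27766 CPM in the 363 with over 10%. The ER chaperone list stood at 4063 CPM in the 258, 5082 CPM in the 102 and 8343 CPM in the 363. Ribosomal protein genes ran the other way, at 215984, 189271 and 142720 CPM. Depth differed as well, with medians of 1554.5, 1288 and 2466 UMIs in the same order, and its part was not tested. At the 2% limit itself the levels were alike. The secreted, membrane and ER chaperone genes together stood at 19006 CPM in 23 barcodes of 1.5% to 2% Mt- UMIs and 18888 CPM in 10 of 2% to 2.5%. Against the 363, 661 of 2999 genes (22%) were lower in the 258 by 1.5-fold or more and 474 (15.8%) higher, with the whole interval past 1.5-fold for 323 (10.8%) and 86 (2.87%). Against the 102, 346 of 2825 genes (12.2%) were lower by 1.5-fold or more and 208 (7.36%) higher, with the whole interval past 1.5-fold for 26 (0.92%) and 0. Of the 35 secreted and membrane genes measured against the 363, 30 were lower and 1 higher, and of the 67 ribosomal protein rows 39 were higher and 0 lower. Hspa5, the main chaperone of the ER, stood at 158 CPM in the 258 against 1138 CPM in the 363, and Psap at 163 against 1239 CPM. Barcodes with at least 5% AC134224.3 were less frequent in the 258, at 39 of 258 (15.1%, 11.0 to 20.1), than in these sets, at 32 of 102 (31.4%, 22.5 to 41.3) and 133 of 363 (36.6%, 31.7 to 41.8).

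Within the 258, too, the secreted and membrane list stood higher where the mitochondrial share was higher. The secreted and membrane list stood at 10502 CPM in the 89 barcodes of up to 0.5% Mt- UMIs, 11579 CPM in 95 of 0.5% to 1%, 12969 CPM in 51 of 1% to 1.5% and 14406 CPM in 23 of 1.5% to 2%. The ER chaperone list stood at 3673, 4085, 4914 and 4600 CPM in the same ranges and was highest in the third. AC134224.3 moved with the mitochondrial share, since 1 of the 89, 13 of the 95, 15 of the 51 and 10 of the 23 had at least 5% of it. With only the barcodes below 2% of AC134224.3 the order was the same, at 10470, 11128, 11747 and 13512 CPM in 84, 82, 36 and 13 barcodes. Depth moved with the mitochondrial share there, with medians of 2278, 1414.5, 1343 and 1145 UMIs, and the part of depth was not tested. By depth, the list stood at 12746 CPM in barcodes of 800 to 1500 UMIs, 12483 CPM in those of 1500 to 3000 and 9119 CPM in those of 3000 to 5000. Ribosomal protein genes stood at 193969, 216791 and 234817 CPM in the same ranges. Outside the rule, the 30 barcodes of 5000 to 10000 UMIs with at most 2% Mt- UMIs stood at 10008 CPM for the secreted and membrane list, and the 5 of over 10000 UMIs at 8432 CPM. Below the lower limit the list was not low. There, 64 barcodes of under 800 UMIs, at least 300 genes and at most 2% Mt- UMIs stood at 15493 CPM (14322 to 16734). The 2763 comparison barcodes stood at 15998 CPM.

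**Figure D5:**
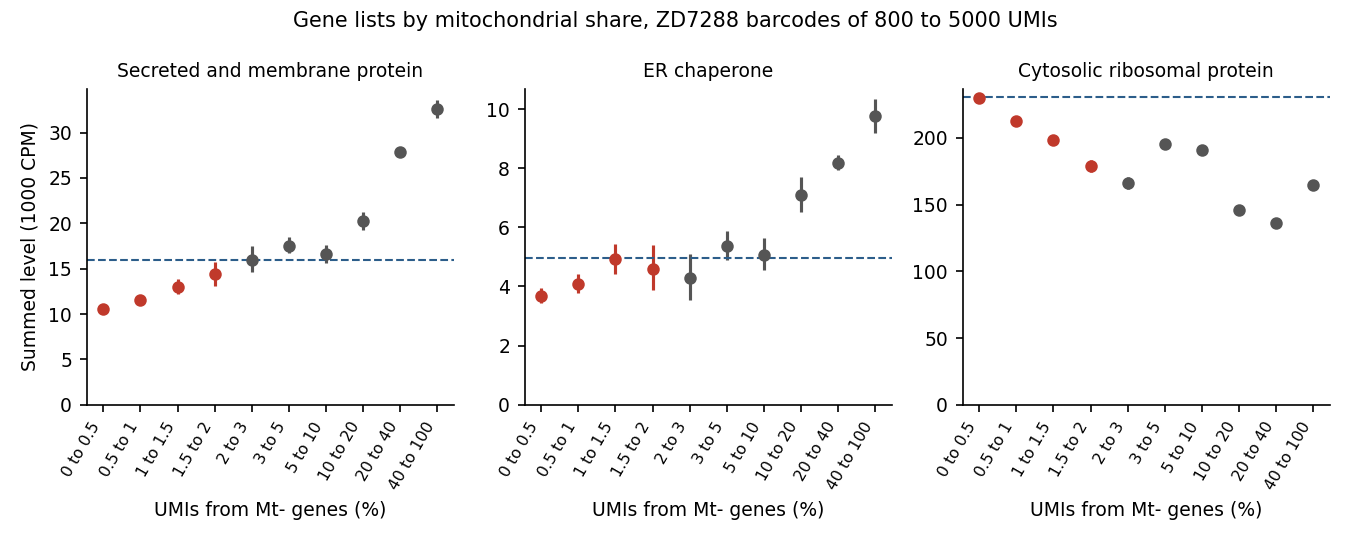
Points give the summed level of 3 gene lists in 1000 CPM for ZD7288 barcodes of 800 to 5000 UMIs, in ranges of their Mt- share in percent, with exact 95% counting intervals; red points hold the 258 barcodes of at most 2% and dashed lines mark the barcodes of over 10000 UMIs. The secreted and membrane list stands at 10502 CPM in the lowest range and 32579 CPM in the highest, while ribosomal protein genes stand at 229893 and 164726 CPM.

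Of the ZD7288 barcodes 6.70% (5.93 to 7.54) met the rule, against 1.31% (0.654 to 2.33) of the vehicle barcodes, or 11 of 842. The libraries differed in depth, with medians of 20950 UMIs per barcode with ZD7288 and 15869.5 with vehicle, and the rule by which barcodes were kept was not stated, so treatment and library cannot be told apart. The 11 vehicle barcodes held 25502 UMIs outside Mt- genes, so only lists could be read. Their secreted and membrane list summed to 19842 CPM (18150 to 21648) against 14638 CPM in the 661 vehicle barcodes of over 10000 UMIs, a ratio of 1.36 (1.24 to 1.48), the opposite direction to that in the ZD7288 library. The ER chaperone list stood at 0.94 (0.79 to 1.12), an interval that holds 1. The difference between the libraries was not tested. For the secreted, membrane and ER chaperone genes together the 11 ranged from 5248 to 71025 CPM with a median of 25946 CPM, and their sum of 25018 CPM was 22668 CPM without the highest, against 20127 CPM in the 661. Their ribosomal protein list stood at a ratio of 0.93 (0.91 to 0.96) to the 661 and their detained-intron list at 1.00 (0.87 to 1.15). The amino acid response list stood at 9841 CPM in the 258 low-UMI barcodes with ZD7288, against 3804 CPM (3084 to 4640) in the 11 with vehicle. AC134224.3 was below 2% in 9 of the 11 and at 8.31% in 1.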

How the data were processed

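The data were raw UMI counts of 25399 genes in 4691 barcodes, deposited as 1 matrix for both libraries. Per the submitters' processing notes they were made with Cell Ranger, version 3.0.2 per the file headers. Genome build and annotation: not given in the sources used here. The other deposited column used here was the barcode with its library suffix, which was tied to a sample by the leading number of that sample's title. The treated sample's label spells the compound ZD2788. No further filter and no doublet caller were applied.

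Members and gene lists were chosen with earlier results of these data known, and the ranges of AC134224.3 and the Slc families after the values were seen. Of 965 list entries 887 matched a symbol. UMIs were summed over barcodes and scaled per 1000000 UMIs outside Mt- genes. Intervals were exact (Poisson for CPM, Clopper-Pearson for shares, conditional binomial for ratios) at 95%. A gene at 0 UMIs took a bound from 3 UMIs. Named genes were the 12 largest and 12 smallest ratios, in each list of the rule the 4 most abundant and 2 at either end, and in other lists 2 at either end. Genes named outside this rule (markers, further list members and genes of the AC134224.3 ranges) were chosen after their values were seen. Some genes the rule names are not reported here. The interval method was checked on simulated counts. Python 3.11.15, NumPy 2.4.6, SciPy 1.17.1 and pandas 2.3.3 were used.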

Additional observations from a re-analysis of the deposited data

How the results depend on the processing

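Each count and list median of the comparison with the barcodes of over 10000 UMIs was recomputed under 14 planned settings and 2 added after the data were seen. For the secreted and membrane list and the ER chaperone list all settings were added after the data were seen. The medians of the detained-intron (0.088 to 0.30), housekeeping (-0.073 to 0.044), S phase (0.064 to 0.26) and secreted and membrane lists (-0.52 to -0.25) stayed within the 95% order-statistic interval of the list's median in all 14 settings that give one, an interval over genes, which are not independent. The ribosomal protein median of -0.10 was -0.035 with all UMIs in the total, -0.13 with ribosomal protein genes out of it, -0.15 with the median gene ratio set to 1, -0.15 for 800 to 3000 UMIs, -0.065 for at most 1% Mt- UMIs, -0.16 with each barcode counted equally, -0.16 after thinning to 700 UMIs, -0.076 without AC134224.3 in the total and -0.064 in the members below 2% of it. The G2/M median of 0.091 was 0.59 against barcodes of 10000 to 20000 UMIs and 0.23 after thinning, and it was -0.027 against barcodes of at most 5% Mt- UMIs. The ER chaperone median of -0.39 was -0.20 for 800 to 3000 UMIs and -0.23 after thinning.

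The 87 higher genes became 137 with all UMIs in the total, 56 with the median gene ratio set to 1, 146 for 800 to 3000 UMIs, 139 for at most 1% Mt- UMIs, 134 against barcodes of 10000 to 20000 UMIs, 133 with each barcode counted equally, 240 after thinning, 23 with a floor of 100 CPM, 1695 with no floor beyond 1 UMI, 2 at 2-fold and 2 where the whole interval had to pass 1.5-fold. The 122 lower genes became 206 without ribosomal protein genes in the total, 196 after thinning, 46 with a floor of 100 CPM, 1479 with no floor, 22 at 2-fold and 13 by the interval. The floor settings test fewer or noisier genes and the 2-fold and interval settings apply a stricter rule to the same 2737 genes, by construction. For the others the cause was not tested. With limits of 1% and 10% in place of 2% and 5% of AC134224.3, the secreted and membrane ratio was 1.40 in the rich range and 0.67 in the poor one, and the detained-intron ratio 2.20 and 1.06. With a floor on the mean of both sets, which genes high in the 39 pass more easily, the counts were 77 higher and 99 lower of 589 genes against the 215, and 75 and 61 of 577 against the barcodes of over 10000 UMIs.

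No gene matched by symbol to the nuclear-retained list reached the floor, so that list has no median except with no floor, at -0.65 on 2 genes. No paired analysis was possible because each condition was 1 library with no replicate. The depth of 486041 UMIs over 258 barcodes limits single genes: 50 CPM is 24.5 UMIs.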
